A study of Mus musculus with 3 samples.

Results

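The polyamine genes described here are 10 genes of the 31053 in the count tables, taken by name: Odc1, Amd1, Srm and Sms of synthesis, Sat1, Smox and Paox of catabolism, and Azin1, Oaz1 and Oaz2 of the control of ornithine decarboxylase. All 10 had UMIs (molecules counted by their barcodes) in the kept cells of every tumor. Polyamines (putrescine, spermidine and spermine) are small cations made from ornithine. Ornithine decarboxylase (Odc1) makes putrescine, and S-adenosylmethionine decarboxylase (Amd1) supplies the aminopropyl groups that spermidine synthase (Srm) and spermine synthase (Sms) add. Sat1 acetylates spermidine and spermine, Paox oxidizes the acetylated forms, and Smox oxidizes spermine directly. Antizymes (Oaz1, Oaz2) send ornithine decarboxylase to the proteasome and antizyme inhibitor (Azin1) binds the antizymes. ODC1 is a known transcriptional target of MYC proteins and is studied as a drug target in neuroblastoma.

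The study profiled whole neuroblastomas of TH-MYCN mice by droplet single-cell RNA-seq (10x Genomics, 3' ends). In this model a rat tyrosine hydroxylase promoter drives human MYCN in neural crest-derived cells. There was 1 group of 3 tumors, each from 1 mouse heterozygous for the transgene, aged 62, 79 and 63 days for tumors 1, 2 and 3, with no tumor-free or untreated control. The 13622 barcodes held 5650 kept cells (1914, 1221 and 2515 per tumor), with a median of 4282.5, 1594 and 1816 UMIs per cell.

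Cells were clustered without the 10 genes and without 29 other genes of the pathway, and clusters were named from marker genes. The 3266 tumor-like cells (353, 864 and 2049 per tumor) carried adrenergic markers such as Dbh and Th, the 943 macrophage-like cells numbered 643, 113 and 187, and the 312 neutrophil-like cells numbered 236, 54 and 22. A cluster of 203 cells with mixed markers stayed unnamed. UMIs were summed per tumor and class, which gave 27 sums of at least 10 cells in 12 classes, and levels are counts per 1e+06 UMIs of the sum (CPM). Because the 3 tumors were the replicates, cells were never counted as such, and less RNA per cell and fewer expressing cells cannot be told apart in a sum.

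The libraries did not carry tumor transcripts alike. Outside the tumor-like cells, the summed level of 10 tumor markers in macrophage-like sums was 33.2 CPM in tumor 1, 771 CPM in tumor 2 and 1091 CPM in tumor 3, against 2734, 2912 and 3137 CPM in the tumor-like cells of the same tumors. In neutrophil-like sums it was 55.2, 997 and 1322 CPM. Macrophage-like cells of tumor 1 thus held 1.21% of the tumor-like level and those of tumors 2 and 3 held 26.5% and 34.8%. Dbh alone was at 0 in macrophage-like cells of tumor 1, and no marker was at 0 in those of tumors 2 and 3. In the other direction, 17 macrophage markers summed to 323, 76.2 and 240 CPM in tumor-like cells, or at most 1.52% of the macrophage-like level.

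Several of these genes carry sequence-level controls that UMI counts at the 3' end do not read. The antizyme transcripts are translated in full only where ribosomes shift frame at a short stop site, shown here because Oaz1 had the most UMIs of the 10 in tumor-like cells and its transcript level is not a protein level. Capitals mark the serine codon and the stop codon at which the first frame ends. The Oaz1 site lies in exon 2 of 5 of transcript Oaz1-205, on the plus strand at chr10:80828280-80828309 (GRCm38, GENCODE M21), and the Oaz2 site lies in exon 3 of 5 of transcript Oaz2-203, on the plus strand at chr9:65686257-65686286.
Oaz1 frameshift site: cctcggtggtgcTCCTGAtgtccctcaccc
Oaz2 frameshift site: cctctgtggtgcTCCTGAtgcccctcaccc
The Amd1 messenger has a short upstream reading frame whose peptide stalls ribosomes when polyamines are plentiful. It lies in exon 1 of 8, in the 5' untranslated region, on the minus strand at chr10:40302155-40302175, and all of it is in capitals.
Amd1 upstream reading frame: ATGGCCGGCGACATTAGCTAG

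Promoter windows (250 bases before to 50 after a RefSeq start, GRCm38.p6) were held for 8 of the 10 genes, not for Srm and Azin1. The canonical E-box bound by MYC and MAX proteins, CACGTG, which reads the same on both strands, was found in 1 of these 8 genes. It lay in 1 of the 2 windows of Sms, on the minus strand at chrX:157492238-157492537, 196 bases before the start, in capitals in the sequence. Of 27025 genes with a window searched, 8.09% held the motif. A match is a string of letters and not a bound site. Sequence outside these windows, such as intron 1 of Odc1, was not searched, so a gene without a match may hold the motif there.
Sms promoter window: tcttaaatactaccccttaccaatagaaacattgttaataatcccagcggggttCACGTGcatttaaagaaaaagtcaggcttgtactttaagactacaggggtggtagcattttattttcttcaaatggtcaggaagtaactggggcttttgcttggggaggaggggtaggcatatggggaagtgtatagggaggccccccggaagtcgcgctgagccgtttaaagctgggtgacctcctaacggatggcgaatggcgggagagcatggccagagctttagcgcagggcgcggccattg

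Ornithine decarboxylase had its highest mean level in the tumor-like cells. Odc1 (chr12:17544794-17551505, plus strand) had levels of 191, 206 and 276 CPM in tumor-like cells of tumors 1, 2 and 3 (224 ± 45.3, SD, n = 3). In macrophage-like cells its levels were 30.4, 91.0 and 131 CPM (84.2 ± 50.8), and in neutrophil-like cells 21.2, 82.5 and 157 CPM (86.8 ± 67.9). The tumor-like levels lay above every level of both myeloid classes. Within a tumor the ratio of the tumor-like to the macrophage-like level was 6.28 in tumor 1, 2.26 in tumor 2 and 2.10 in tumor 3.

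The aminopropyl transferases also had their highest means in tumor-like cells. Srm (chr4:148591503-148594993, plus strand) had levels of 367, 342 and 354 CPM in tumor-like cells, 29.4, 122 and 168 CPM in macrophage-like cells and 17.0, 165 and 358 CPM in neutrophil-like cells. Sms (chrX:157443855-157492287, minus strand) had levels of 346, 324 and 307 CPM in tumor-like cells, 50.2, 125 and 167 CPM in macrophage-like cells and 15.6, 187 and 314 CPM in neutrophil-like cells. Both genes were steady across tumor-like sums (355 ± 12.3 and 325 ± 19.8 CPM, SD, n = 3), while in both myeloid classes tumor 1 had the lowest level, below that of tumors 2 and 3. The neutrophil-like levels of tumor 3 reached the tumor-like range, on 16 UMIs of Srm and 14 of Sms. Amd1 (chr10:40287458-40302186, minus strand) had 82.5, 59.98 and 55.8 CPM in tumor-like cells, 31.5, 35.9 and 32.4 CPM in macrophage-like and 18.4, 52.5 and 22.4 CPM in neutrophil-like cells. Its near-identical copy Amd2 (chr10:35708675-35711892) had 92.2, 40.2 and 38.1 CPM in tumor-like cells, so the split of reads between both genes is uncertain.

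**Figure D1:**
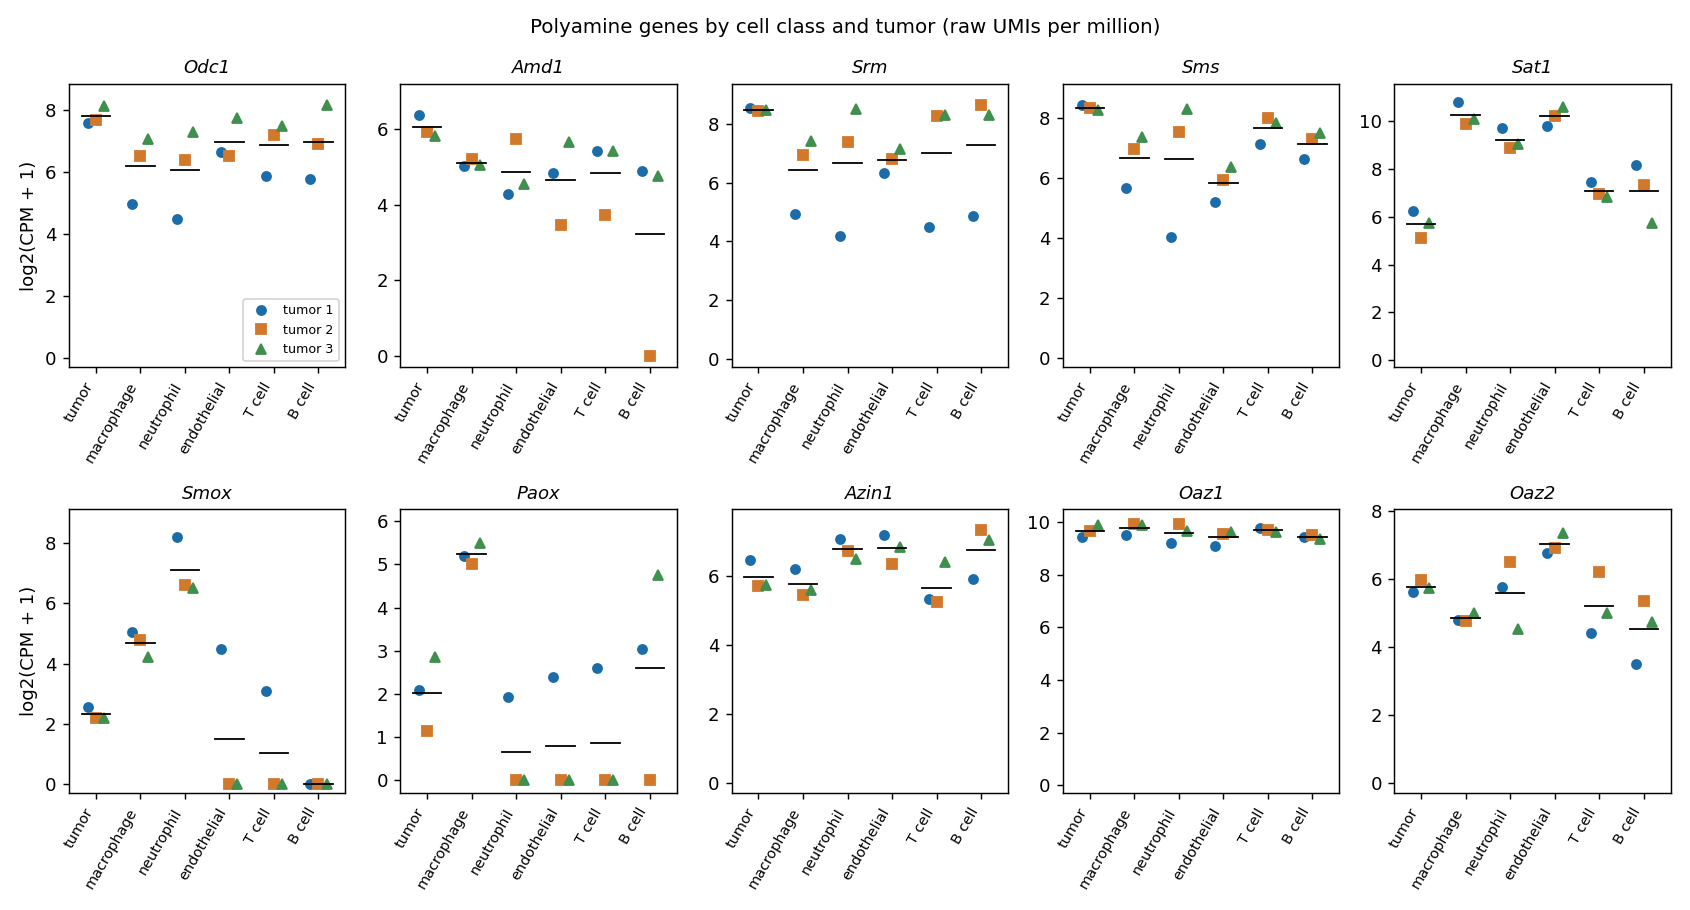
Level of each gene as log2(CPM + 1) on the vertical axes in 6 cell classes with sums in every tumor; points are tumors 1, 2 and 3 and lines are their means. Odc1, Srm and Sms were highest on average in tumor-like cells, with the tumor 1 points (circles) lowest in the myeloid and lymphoid classes, while Sat1 was lowest in tumor-like cells.

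Sat1 had the opposite distribution. Sat1 (chrX:155213132-155216449, minus strand) had levels of 76.0, 33.6 and 52.0 CPM in tumor-like cells, on 47, 56 and 202 UMIs. In macrophage-like cells it had 1783, 963 and 1115 CPM (1287 ± 437, SD, n = 3), and in neutrophil-like cells 835, 472 and 538 CPM (615 ± 193). The ranges of the 3 classes did not overlap, and within each tumor the macrophage-like level was 21.4 to 28.7 times the tumor-like level. With the authors' corrected counts tumor-like Sat1 was 471, 31.9 and 44.1 corrected CPM, so that of tumor 1 lay far above its raw level. Macrophage-like cells had 2238, 1158 and 1704 corrected CPM. The macrophage markers in tumor-like sums were at 1353, 30.9 and 244 corrected CPM, against 323, 76.2 and 240 CPM in raw counts.

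Among tumor-like, macrophage-like and neutrophil-like cells, Smox had its highest mean in neutrophil-like and Paox in macrophage-like cells, mostly on few UMIs. Smox (chr2:131491496-131525922, plus strand) had 4.85, 3.60 and 3.60 CPM in tumor-like cells (3, 6 and 14 UMIs), 31.8, 26.3 and 17.7 CPM in macrophage-like cells (194, 11 and 12 UMIs) and 294, 97.5 and 89.6 CPM in neutrophil-like cells (208, 13 and 4 UMIs). Of the 3 classes, neutrophil-like cells had the highest Smox level in every tumor. Outside them, erythroid-like sums had 84.2 and 39.9 CPM of Smox in tumors 2 and 3, on 2 and 1 UMIs. Mesothelial-like and CAF-like sums of tumor 1 had 24.4 and 19.9 CPM of Paox. Paox (chr7:140115799-140137224, plus strand) had 35.5, 31.1 and 44.2 CPM in macrophage-like cells (216, 13 and 30 UMIs) against 3.23, 1.20 and 6.18 CPM in tumor-like cells (2, 2 and 24 UMIs). In neutrophil-like cells it had 2.83 CPM in tumor 1 (2 UMIs, exact 95% Poisson interval 0.343 to 10.2 CPM) and 0 UMIs in tumors 2 and 3, which allows up to 22.5 and 67.2 CPM. The macrophage-like level is above the first limit and below the second, so Paox was not measurable in neutrophil-like cells of tumor 3 at this depth. In tumor 2 the macrophage-like level had an exact 95% Poisson interval of 16.6 to 53.2 CPM, which spans the first limit. Tumor 2 thus does not clearly set these 2 classes apart. These intervals and limits cover counting error only.

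The comparison of tumor-like with macrophage-like cells asked how the tumor cells differ in these genes from the most numerous immune class. Over all genes 8419 were tested in 1 fit of the 3 classes with edgeR's quasi-likelihood test, and 4.56% were called higher and 19.4% lower in tumor-like cells at an adjusted p under 0.05. Of the 10 genes, 3 were lower and 0 higher, and the lower ones were all 3 catabolic genes. Smox and Paox passed the filter on low counts of this fit through myeloid sums alone, Paox through macrophage-like sums only. Their calls as lower in tumor-like cells are therefore not support apart from the levels above, though both held with no filter. Sat1 had a log2 fold change of -4.98 (SE 0.71, edgeR adjusted p = 0.000845), Paox of -3.56 (SE 0.60, edgeR adjusted p = 0.00195) and Smox of -3.08 (SE 0.80, edgeR adjusted p = 0.0177). With the authors' corrected counts in place of raw counts Sat1 alone of these kept its call (limma adjusted p = 0.0209, 0.291 for Smox and 0.0789 for Paox), and without tumor 2 or without tumor 3 Smox lost its call (edgeR adjusted p = 0.0738 and 0.0745). Fold changes are after TMM scaling, which places them 0.36 below the unscaled log2 ratio of CPM in this comparison, 0.81 below it against neutrophil-like cells and 0.44 above it between the myeloid classes.

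The synthesis genes turned on how tumors were paired. In the fit without pairing Odc1 had a log2 fold change of 1.14 (SE 0.53, edgeR adjusted p = 0.136), Srm of 1.46 (SE 0.70, adjusted p = 0.145) and Sms of 1.22 (SE 0.63, adjusted p = 0.174) over macrophage-like cells. With the tumor as a replicate block all 3 passed, at log2 fold changes of 1.29 (edgeR adjusted p = 0.0183), 1.82 (adjusted p = 0.0143) and 1.42 (adjusted p = 0.0361), where 14.2% of all genes were called higher and 22.4% lower. Without tumor 1 and without a block they passed too, at 0.83, 0.98 and 0.84 (edgeR adjusted p = 0.0274, 0.0107 and 0.0193). Amd1, Azin1, Oaz1 and Oaz2 passed in neither fit, with edgeR adjusted p = 0.241, 0.794, 0.394 and 0.347 without the block. The 10 genes had a median log2 fold change of 0.19, beside 0.03 over all genes.

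Outside tumor-like cells the median levels of Odc1, Srm and Sms moved with the tumor markers. In tumor 1, where tumor markers were lowest outside tumor-like cells, the median level over the 10 other classes was 55.8 CPM for Odc1, 33.6 CPM for Srm and 43.3 CPM for Sms. In tumor 3 the medians over 8 other classes were 144, 296 and 174 CPM, and in tumor 2 over 6 classes they were 105, 146 and 174 CPM. T cell-like sums had 21.5, 305 and 314 CPM of Srm and B cell-like sums 27.8, 399 and 312 CPM, beside tumor marker levels of 130, 1329 and 2498 CPM and of 68.1, 1478 and 2260 CPM. Amd1 did not follow this order, with medians of 25.9, 11.1 and 35.6 CPM in tumors 1, 2 and 3. Nor did Sms in plasmacytoid dendritic-like cells, at 244 CPM in tumor 1 and 239 CPM in tumor 3. Tumor markers in these 2 sums were at 16.4 and 1448 CPM. The part that tumor transcripts in the sums have in the levels of synthesis genes was not tested. The authors' corrected counts left the pattern, with Odc1 at 34.6, 107 and 157 corrected CPM and tumor markers at 37.8, 1165 and 1059 corrected CPM in macrophage-like cells.

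**Figure D2:**
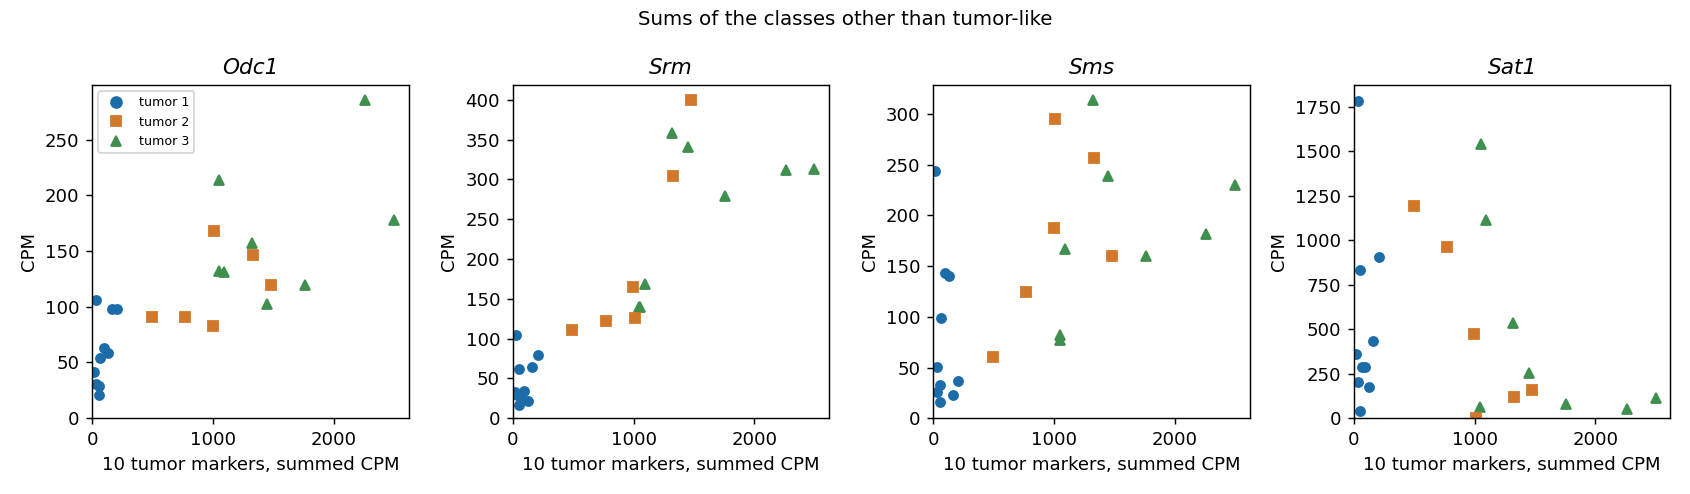
Level (CPM, vertical axes) of 3 synthesis genes and Sat1 against the summed CPM of 10 tumor markers (horizontal axes) in the 24 sums of classes other than tumor-like; symbols are tumors. Sums of tumor 1 stand at the left of each panel, at 207 CPM of tumor markers or less, and hold the lowest Srm levels.

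Against neutrophil-like cells 2 of the 10 genes were lower in tumor-like cells and 0 higher, where 20.3% of all genes were called lower and 4.31% higher. Smox had a log2 fold change of -6.38 (SE 0.88, edgeR adjusted p = 0.000706) and Sat1 of -4.32 (SE 0.69, edgeR adjusted p = 0.00132). Without tumor 1 Smox was -4.98 (edgeR adjusted p = 2.11e-05). Odc1 had 1.28 (SE 0.58, edgeR adjusted p = 0.121) and passed with the tumor as block at 1.29 (adjusted p = 0.0380), where 8.01% of genes were called higher and 20.5% lower. Azin1 had 87.3, 51.6 and 52.2 CPM in tumor-like cells and 134, 105 and 89.6 CPM in neutrophil-like cells, below in each tumor, with a log2 fold change of -1.63 (SE 0.55, edgeR adjusted p = 0.0514). It passed with the block at -1.46 (edgeR adjusted p = 0.0190) and with DESeq2 at -1.69 (adjusted p = 0.0172), and without TMM it was -0.85 (adjusted p = 0.123). Paox had adjusted p = 0.992 by edgeR, on few UMIs in both classes, and Srm, Sms, Amd1, Oaz1 and Oaz2 passed with neither fit.

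Between the myeloid classes 1 member was called. Smox was higher in neutrophil-like than in macrophage-like cells, with a log2 fold change of 3.30 (SE 0.75, edgeR adjusted p = 0.0287), the only 1 of the 10 genes called where 3.14% of genes were called higher and 2.83% lower. The call was lost without tumor 2 or tumor 3 (edgeR adjusted p = 0.145 and 0.169) and with the corrected counts (limma adjusted p = 0.0784), at log2 fold changes of 3.07 to 3.25. Without tumor 1 it was 2.19 (edgeR adjusted p = 0.0211). Paox had a log2 fold change of -3.43 (SE 0.92, edgeR adjusted p = 0.0530), which rests on 2 UMIs in neutrophil-like cells, and passed with the tumor as block at -3.44 (adjusted p = 0.0267), where 5.57% of genes were called higher and 4.55% lower. It entered the fit through macrophage-like sums alone. Oaz2 had a log2 fold change of 1.46 (SE 0.50, edgeR adjusted p = 0.117) and was called higher by DESeq2 (1.59, adjusted p = 0.00639). Sat1 and Azin1 had edgeR adjusted p = 0.619 and 0.168.

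**Figure D3:**
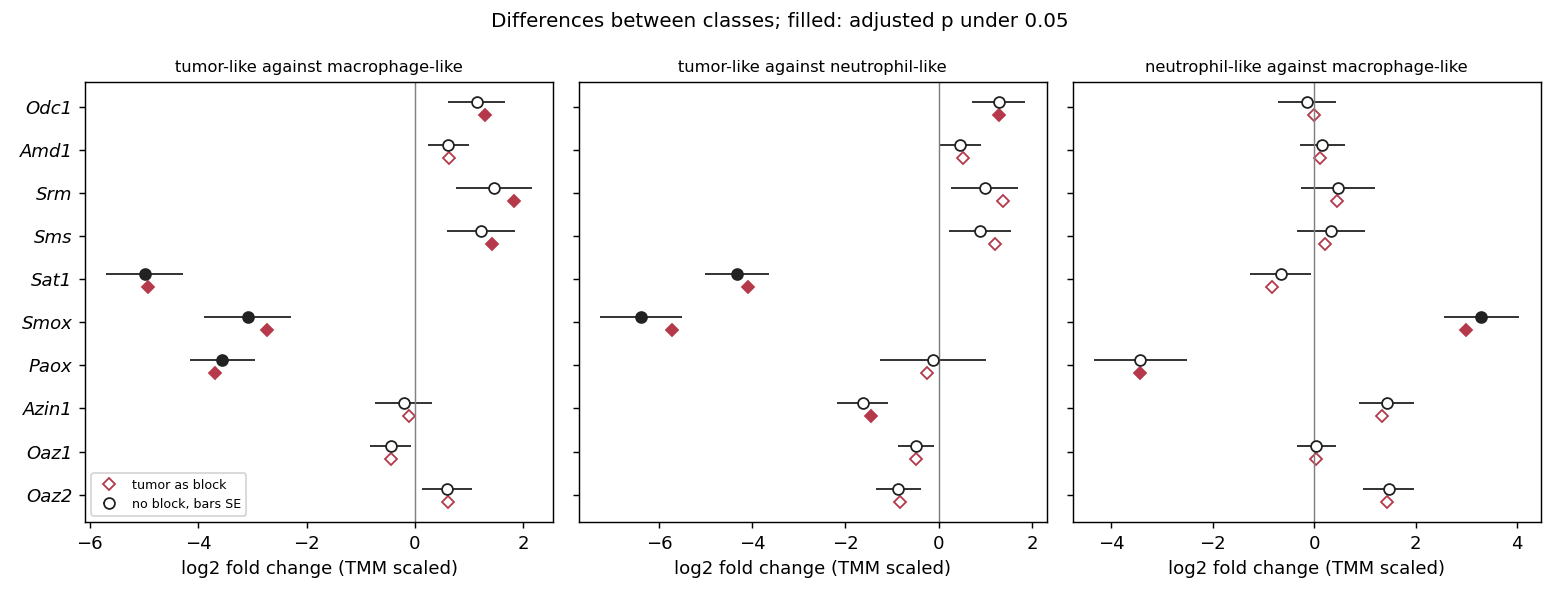
TMM-scaled log2 fold change of each gene (horizontal axes) in 3 comparisons; circles are the fit without pairing with SE bars, diamonds the fit with the tumor as block, and filled symbols passed at an adjusted p under 0.05. Sat1, Smox and Paox lie below 0 for tumor-like against macrophage-like cells, and Odc1, Srm and Sms are filled only with the block.

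The antizyme genes were not called by edgeR in these 3 comparisons. Oaz1 (chr10:80826656-80829290, plus strand) had the most UMIs of the 10 in tumor-like and neutrophil-like sums of tumors 2 and 3, at 682, 807 and 947 CPM in tumor-like, 729, 967 and 947 CPM in macrophage-like and 579, 975 and 806 CPM in neutrophil-like cells. The 3 classes overlapped. Oaz2 (chr9:65668001-65690300, plus strand) had 48.5, 61.8 and 52.8 CPM in tumor-like and 26.8, 26.3 and 31.0 CPM in macrophage-like cells, ranges that did not overlap, and 53.8, 90.0 and 22.4 CPM in neutrophil-like cells. Azin1 (chr15:38487427-38519266, minus strand) had 73.2, 43.1 and 47.2 CPM in macrophage-like cells, each below the tumor-like level of the same tumor, with ranges that overlapped.

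Sat1 was the main catabolic gene in endothelial-like cells, as in tumor-like and both myeloid classes. Its endothelial-like level was 908, 1192 and 1542 CPM (1214 ± 318, SD, n = 3), which overlapped the macrophage-like levels. Paox had 4.27, 0 and 0 CPM there and Smox 21.4, 0 and 0 CPM. In these sums of tumors 2 and 3 a count of 0 allows up to 30.3 and 24.6 CPM, above the levels of both genes in tumor 1. The macrophage markers in endothelial-like sums were at 1104, 2919 and 459 CPM, or 5.19%, 15.2% and 2.75% of the macrophage-like level. Oaz2 had its highest mean in endothelial-like cells, with 109, 121 and 164 CPM. Across classes with sums in every tumor, mean Sat1 fell in the order macrophage-like (1287 CPM), endothelial-like (1214), neutrophil-like (615), B cell-like (167), T cell-like (138) and tumor-like (53.9). The macrophage-like and endothelial-like levels overlapped, as did the B cell-like and T cell-like levels, and the B cell-like level of tumor 3 (52.0 CPM, 2 UMIs) lay in the tumor-like range. Mean Odc1 was 224 CPM in tumor-like cells, then 153, 134, 127, 86.8 and 84.2 CPM in B cell-like, endothelial-like, T cell-like, neutrophil-like and macrophage-like cells, and these last 5 overlapped each other. The B cell-like and endothelial-like ranges also overlapped the tumor-like range, and in tumor 3 the B cell-like level (286 CPM, 11 UMIs) lay above the tumor-like level (276 CPM).

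Against the mean of all 11 other classes, 4 of the 10 genes were called higher in tumor-like cells, where 28.4% of 9748 genes were called higher and 1.59% lower, and 1 was lower. The 4 were the synthesis genes, with log2 fold changes of 1.40 for Odc1, 1.30 for Amd1, 1.73 for Srm and 1.75 for Sms (edgeR adjusted p = 0.00460, 0.0121, 0.0140 and 0.00176), and the lower one was Sat1 at -2.33 (edgeR adjusted p = 0.00960). The median of all genes was 0.55 in this fit and -0.55 with DESeq2, which called 171 genes higher and 1821 lower where edgeR called 2768 and 155. With DESeq2 Sms alone of the synthesis genes passed (0.96, adjusted p = 0.0335), so the other 3 calls depend on the tool. With the tumor as block the same 4 genes were higher and Sat1 lower, where 31.8% of genes were called higher and 1.84% lower. Leaving out a tumor left 1, 1 and 0 of the 4 calls (without tumors 1, 2 and 3). Each other class had the same weight in this mean, though not all had sums in every tumor. NK cell-like, mesothelial-like and plasma cell-like sums came from tumor 1 alone, where median Odc1, Srm and Sms outside tumor-like cells were lowest. CAF-like and plasmacytoid dendritic-like sums came from tumors 1 and 3, and erythroid-like sums from tumors 2 and 3.

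The balance of both arms was summarised as the synthesis share, the UMIs of Odc1, Amd1, Srm and Sms as a percent of these plus the UMIs of Sat1, Smox and Paox, with no test. In tumor-like cells the share was 92.1% (exact binomial 95% interval 89.8 to 94.1), 96.0% (94.98 to 96.9) and 94.1% (93.4 to 94.8) in tumors 1, 2 and 3. In macrophage-like cells it was 7.10% (6.65 to 7.57), 26.8% (23.2 to 30.6) and 29.8% (27.1 to 32.5), and in neutrophil-like cells 5.99% (4.49 to 7.80), 46.1% (37.7 to 54.7) and 57.6% (44.8 to 69.7). Tumor-like shares did not overlap those of either myeloid class in any tumor. Other classes came closer, with 41.4%, 81.0% and 91.2% in B cell-like and 57.8%, 85.5% and 86.9% in T cell-like cells. Erythroid-like cells had 87.5% and 83.3% in tumors 2 and 3. The B cell-like interval of tumor 3 (76.3 to 98.1) spanned the tumor-like shares. The myeloid shares of tumor 1 lay far below those of tumors 2 and 3, as their tumor marker levels did. Endothelial-like cells had 20.5%, 18.6% and 23.9%, with overlapping intervals. Sat1 supplied 94.4% to 96.4% of the catabolic UMIs in macrophage-like cells and 73.8% to 85.7% in neutrophil-like cells, where Smox made up the rest but for the Paox UMIs of tumor 1. With both Sat1 and Odc1 left out, the mean share over tumors in macrophage-like cells was 77.0% in place of 21.2%.

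**Figure D4:**
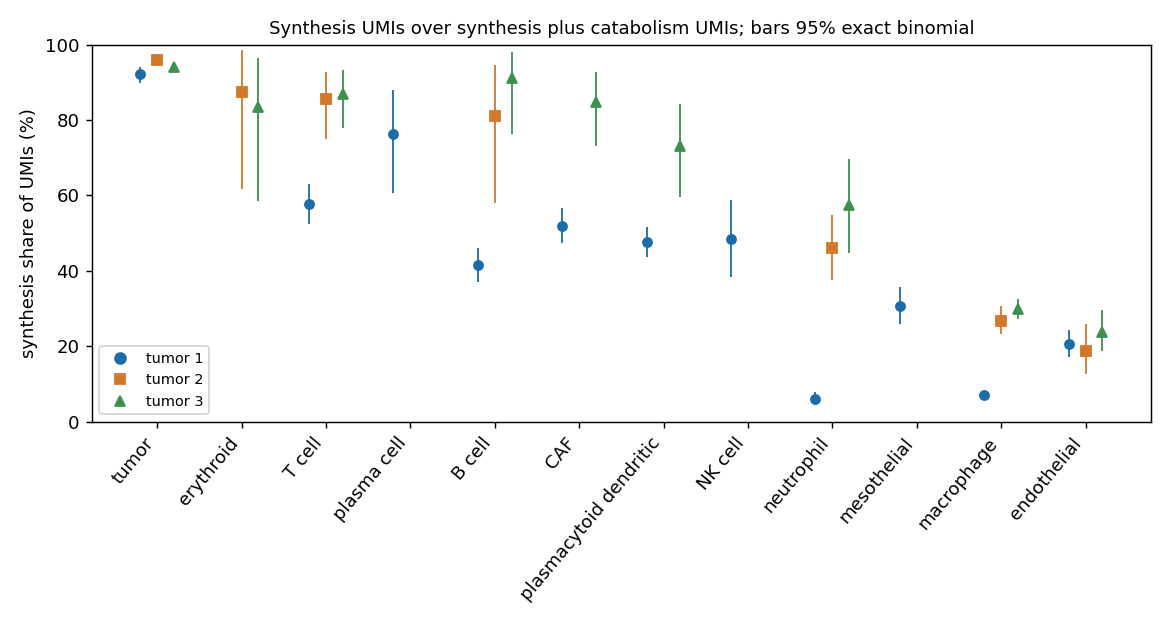
Synthesis share of UMIs in percent (vertical axis) by class and tumor, with exact binomial 95% intervals that cover counting error only; classes are ordered by their mean. Tumor-like shares lie between 92.1% and 96.0%, and tumor 1 (circles) has the lowest myeloid shares.

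Within the tumor-like cells 1 cluster stood apart in 1 tumor. Of 7 clusters, 6 had sums in every tumor, and mean Srm ranged from 240 to 423 CPM, mean Sms from 198 to 393 CPM and mean Odc1 from 164 to 300 CPM over them. The lowest of each was cluster 7, whose 39 cells of tumor 1 had 34.5 CPM of Odc1 (1 UMI), 34.5 CPM of Srm (1 UMI) and 759 CPM of Sat1 (22 UMIs). Their tumor markers summed to 311 CPM, against 1734 to 4021 CPM in the other tumor-like clusters of tumor 1, and their macrophage markers to 863 CPM, so the label tumor-like is weak for these cells. In tumors 2 and 3 cluster 7 had synthesis shares of 92.3% and 95.2%. Left out, Sat1 was -5.36 against macrophage-like cells (edgeR adjusted p = 0.000123) and 3 of the 10 genes were again lower and 0 higher. In the comparisons of neutrophil-like cells 1 call was added each, Azin1 lower than in neutrophil-like cells (edgeR adjusted p = 0.0371) and Paox lower in neutrophil-like than in macrophage-like cells (adjusted p = 0.0278).

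No tumor-like cluster met the rule for a cycling cluster, so tumor-like cells were thinned to 1000 UMIs and split by 12 cycling markers, a comparison chosen after seeing the data. Cells with 3 or more of these UMIs (80, 423 and 1116 per tumor) had 188, 184 and 283 CPM of Odc1 and 424, 374 and 361 CPM of Srm. Cells with none (25, 64 and 141) had 124, 218 and 281 CPM of Odc1 and 391, 330 and 281 CPM of Srm. Both ranges overlapped between these cells. A further 55, 377 and 792 cells had 1 or 2 such UMIs, and 193 cells of tumor 1 were too shallow. None of the 8 genes tested was called by edgeR, where 0.0257% of 3887 genes was called higher and 0% lower, and their edgeR adjusted p was 0.999 each, with none called where the tumor was a block and 0.206% of genes were called higher and 0% lower. With no adjustment (p under 0.05) 39 genes were higher and 29 lower, and DESeq2 called 11 higher and 0 lower.

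Within the macrophage-like cells Paox had its highest level in the same subset in each tumor. The Apoe+-like subset (262 cells) had 124, 71.0 and 78.1 CPM of Paox in tumors 1, 2 and 3, the Ccr2+-like subset (275 cells) 8.83, 0 and 9.68 CPM and the Pecam1+-like subset (311 cells) 7.49, 0 and 28.5 CPM. The remaining 95 macrophage-like cells formed a subcluster that stayed unnamed and entered no subset. The Apoe+-like levels lay above those of the other named subsets, on 172, 13 and 24 UMIs. Ccr2+-like cells had 23, 0 and 1 UMIs and Pecam1+-like cells 14, 0 and 5. In tumor 1 the exact 95% Poisson interval of Apoe+-like cells (106 to 144 CPM) lay above both others. In tumor 2 it was 37.8 to 121 CPM, and those of Ccr2+-like and Pecam1+-like cells reached 73.4 and 45.2 CPM. In tumor 3 the intervals of both, up to 53.9 and 66.6 CPM, overlapped that of Apoe+-like cells. Tumors 2 and 3 thus do not clearly set these subsets apart. Paox was higher in Apoe+-like cells with a log2 fold change of 3.24 (SE 0.57, edgeR adjusted p = 0.00720), the only 1 of 7 genes tested to pass, where 4.45% of 3416 genes were called higher and 3.48% lower. Paox passed the filter on low counts through its Apoe+-like sums alone, since its levels elsewhere were 28.5 CPM or less. Its call is therefore not support apart from these levels, though it held with no filter. Without tumor 1 Paox was not among the genes tested.

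In the TMM-scaled edgeR fit without pairing of tumors, Sat1 and Azin1 were not called between subsets. Sat1 had 2283, 1631 and 1820 CPM in Pecam1+-like cells, 1653, 1175 and 716 CPM in Ccr2+-like cells and 1363, 977 and 973 CPM in Apoe+-like cells. Pecam1+-like cells had the highest Sat1 level in each tumor, with a log2 fold change of 0.66 (SE 0.29, edgeR adjusted p = 0.234), and 0 of 7 genes tested were called, where 2.75% of all genes were called higher and 1.43% lower (426 and 233 with no adjustment of p, 102 and 92 by DESeq2). With the tumor as block Sat1 passed at 0.68 (edgeR adjusted p = 0.0186) and Azin1 at 0.82 (adjusted p = 0.0298), and Paox passed as lower at -1.65 (adjusted p = 0.0411), where 14.3% of genes were called higher and 6.5% lower. Azin1 was highest in each tumor in Pecam1+-like cells (97.4, 61.3 and 74.2 CPM) and lowest in Apoe+-like cells (41.9, 21.8 and 26.0 CPM), and for the latter passed as lower without TMM (-1.17, edgeR adjusted p = 0.0493) and with the block at -1.13 (edgeR adjusted p = 0.00702), where 9.95% of genes were called higher and 14.8% lower. Amd1, Smox and Oaz2 were below the filter on low counts in the subsets. No member was called for the Ccr2+-like subset by edgeR with or without the block, where 0.0293% of genes were called higher and 0% lower without it, 147 and 120 at an unadjusted p under 0.05, and 20 and 27 by DESeq2. With the block 2.22% were called higher and 2.61% lower.

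**Figure D5:**
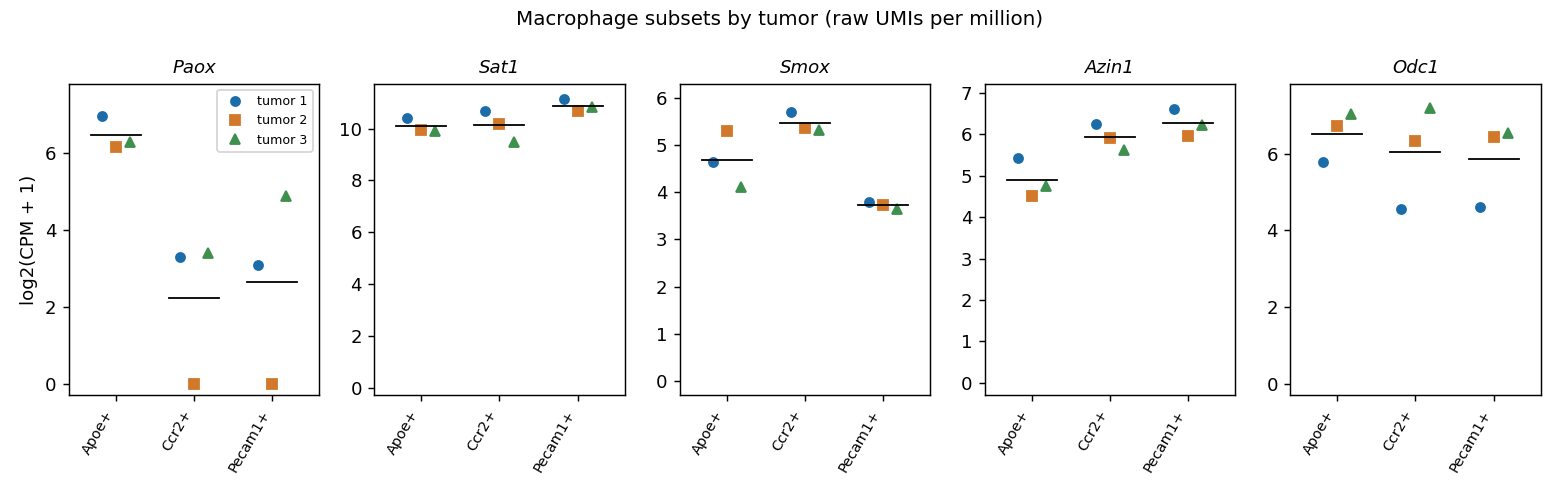
Level of 5 genes as log2(CPM + 1) (vertical axes) in 3 macrophage subsets; points are tumors 1, 2 and 3 and lines are their means. Paox is highest in Apoe+-like cells in each tumor, and Sat1 and Azin1 in Pecam1+-like cells.

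Of 29 other genes of the pathway, 20 were tested in the fit of 3 classes. Against macrophage-like cells 2 were higher and 3 lower in tumor-like cells, against neutrophil-like cells 0 higher and 1 lower, and in neutrophil-like against macrophage-like cells 1 was higher and 2 lower. Over all genes the shares called higher and lower were 4.56% and 19.4%, 4.31% and 20.3%, and 3.14% and 2.83%, so the counts of 3 and 1 lower of 20 are not above the background. With the tumor as block Slc3a2, a subunit of amino acid transporters, was also lower in tumor-like than in macrophage-like cells (-1.89, edgeR adjusted p = 0.0123, 0.0501 without the block). Their median log2 fold changes in these comparisons were -0.20, 0.71 and -0.54, beside 0.03, 0.27 and -0.06 over all genes.

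Genes of arginine and ornithine supply carried the largest differences. Arg2, the mitochondrial arginase, had 444, 232 and 112 CPM in neutrophil-like cells, 11.98, 16.8 and 16.2 CPM in macrophage-like cells and 3.23, 1.80 and 6.43 CPM in tumor-like cells. It was higher in neutrophil-like than in macrophage-like cells (log2 fold change 4.79, edgeR adjusted p = 0.0104) and lower in tumor-like than in neutrophil-like cells (-6.92, edgeR adjusted p = 0.000706). Arg1, the cytosolic arginase, had 3.28, 40.7 and 28.0 CPM in macrophage-like cells and passed in none of the 3 comparisons (edgeR adjusted p = 0.130, 0.521 and 0.274). Gatm, which makes ornithine and guanidinoacetate from arginine and glycine, had 137, 125 and 118 CPM in macrophage-like cells and 12.9, 6.60 and 9.27 CPM in tumor-like cells. It was lower in tumor-like cells (-4.12, edgeR adjusted p = 0.000540) and in neutrophil-like cells (-3.17, edgeR adjusted p = 0.0139) than in macrophage-like cells.

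Atp13a2, a lysosomal polyamine exporter, was also a macrophage gene among these classes. It had 105, 208 and 150 CPM in macrophage-like cells, 30.7, 48.6 and 29.9 CPM in tumor-like cells and 14.1, 15.0 and 22.4 CPM in neutrophil-like cells. It was lower in tumor-like (-2.40, edgeR adjusted p = 0.00208) and in neutrophil-like cells (-2.81, edgeR adjusted p = 0.0104) than in macrophage-like cells. Of the remaining calls against macrophage-like cells, named after their values were seen, Mtap, which recycles the methylthioadenosine left by spermidine and spermine synthesis, was higher in tumor-like cells (1.45, edgeR adjusted p = 0.0496). Azin2, a second antizyme inhibitor, was higher too (1.40, adjusted p = 0.0403 by edgeR) but had adjusted p = 0.0817 with the block, and Mtr, the methionine synthase, was lower (-1.76, edgeR adjusted p = 0.0236).

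The genes whose levels were most like those of Odc1 over the 27 sums, by Pearson's r of log2 CPM among 9748 genes, were Hmgn1 (0.876), Ctps (0.860), Tubb4b (0.851), Pebp1 (0.842) and Tuba1a (0.827). Srm had r = 0.708 with Odc1 and was the only other of the 10 genes above 0.35. For Sat1 they were Capzb (0.894), Atp2b1 (0.892), Gnai2 (0.890), Tln1 (0.884) and Cyba (0.880), while Odc1, Srm and Sms had -0.44, -0.45 and -0.46 and Amd1 had 0.359. The sums share 3 libraries and differ in depth, so these values are descriptions.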

How the data were processed

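Single cells of 3 TH-MYCN tumors were measured in 1 library each (10x Genomics 3' v3.1). The submitters' processing notes name Cell Ranger 3.1.0, Seurat 3.1.5 and mm10. The authors deposited raw UMI counts per gene and barcode, and natural log values of normalized, corrected counts for the kept cells only. Turned back, these were whole corrected counts holding 46.3%, 54.1% and 55.5% of the kept cells' UMIs, and the step that removed the rest is not given in the sources used here. The 5650 kept cells are as many as the study integrated.

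Raw counts of kept cells were integrated and clustered with Seurat 5.3.0 (2000 variable genes, 30 dimensions, resolution 1, 23 clusters, the 10 genes and 29 pathway genes held out). Clusters were named where at least 3 fixed markers had a fold of at least 2 over the median cluster in at least 10% of cells, which was set after a first rule left tumor clusters unnamed. No doublet caller was run, and 3, 0 and 1 barcodes were shared by tumors 1 and 2, 1 and 3, and 2 and 3. Macrophage-like cells were clustered again (resolution 0.5). Sums of raw counts for each class within each tumor (at least 10 cells) were tested with edgeR 4.0.16 (filterByExpr, TMM, glmQLFTest, Benjamini-Hochberg over all genes tested, threshold 0.05, two-sided). The p-values measure spread between 3 tumors, but in the fit of all classes some classes had sums in 1 or 2 tumors only.

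Every class came from the same 3 tumors. Deviations from class means correlated at 0.219 to 0.621 within a tumor (9 pairs of sums) and at -0.473 to 0.217 between tumors in the 3-class fit, at 0.221 to 0.733 within a tumor for macrophage subsets and at 0.275 to 0.390 for the cycling split, so the fit with the tumor as block is given where it changed a call. Alternatives were DESeq2 1.42.0, no TMM, no filter, the corrected counts (log2 CPM, prior count 2) with limma 3.58.1, clustering at resolution 2, and leaving out each tumor.

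Members and gene lists were chosen with earlier results of these data known. In the 3 comparisons of tumor-like, macrophage-like and neutrophil-like cells, pathway genes were named by the rule of up to 3 per direction with the largest called change, given at least 50 CPM on average in whichever class was higher, with Arg1 and Arg2 in any case. For Odc1 and Sat1 the 5 genes of highest r were named. Coordinates are GENCODE M21 (GRCm38) and promoter windows are RefSeq's.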

Additional observations from a re-analysis of the deposited data

Results flagged for a closer look

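The raw tables also hold barcodes that the authors did not keep, which enter no comparison above. With no control samples these count as signal above the limit that a count of 0 allows. Their synthesis share was 43.9% (exact binomial 95% interval 42.0 to 45.7), 94.7% (94.2 to 95.1) and 88.5% (87.9 to 89.2) in tumors 1, 2 and 3, against 16.9%, 73.8% and 77.6% over the kept cells of the same tumors. Removed barcodes had 82.3, 95.9 and 148 CPM of Odc1, where kept cells had 54.4, 171 and 246 CPM. For Sat1 removed barcodes had 299, 23.5 and 64.6 CPM against 1045, 249 and 238 CPM in kept cells, lower in each tumor. Oaz1 was lower in each tumor too, at 672, 403 and 508 CPM against 725, 837 and 926 CPM. Removed barcodes held 4691078, 19088959 and 14825643 UMIs, and kept cells, which mix all classes, 12628163, 2740537 and 5215401 UMIs. Groups of 3 tumors are too small for a check of single outlying samples.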

How the results depend on the processing

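The calls of Sat1 lower in tumor-like than in both myeloid classes, and of Smox lower than in neutrophil-like cells, held under all alternatives run, though without tumor 1 that of Smox moved from -6.38 to -4.98. With the tumor as replicate block, members called higher came to 3 against macrophage-like and 1 against neutrophil-like cells (0 without it), and 1 was called lower in neutrophil-like than in macrophage-like cells. DESeq2 called 3 members lower against neutrophil-like cells (2 by edgeR), where over all genes it called 1961 lower and 598 higher. In neutrophil-like against macrophage-like cells DESeq2 called 2 higher (Smox, Oaz2) and 1 lower, where over all genes it called 470 higher and 340 lower. There no TMM, no filter, resolution 2 and tumor-like sums without cluster 7 (added after seeing the data) each called 1 member lower. Apart from DESeq2 and the block, no share over all genes is given for the alternatives, so their counts of members lack a background. With corrected counts 1 member was lower against macrophage-like cells and 0 were higher in neutrophil-like cells. In Pecam1+-like cells the block gave 2 members higher and 1 lower, and 1 member was lower in Apoe+-like cells, as it was without TMM. Leaving out 1 tumor gave 0 to 3 members higher against macrophage-like cells, 0 to 1 higher in neutrophil-like cells and 0 to 1 higher in Apoe+-like cells. Against all other classes leave-outs gave 1, 1 and 0 higher (without tumors 1, 2 and 3) and 0 to 1 lower, DESeq2 gave 1 higher and 2 lower, and Oaz1 (0.08) reversed to -0.79 with DESeq2 (adjusted p = 0.0309), and leaving out a tumor gave it -0.44 to 0.092 (-0.06 without tumor 1, -0.44 without tumor 3). Why was not tested. The mean synthesis share was 86.6% with corrected counts and 99.0% without Sat1 and Odc1 in tumor-like cells (94.1% as reported), and 77.0% without both genes in macrophage-like cells.

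With 3 tumors and 22 cells in 1 neutrophil-like sum, Smox and Paox rest on few UMIs. The blocked fits changed no other call of a member than those given. The planned comparison of cycling with other tumor-like clusters could not be made.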

Other observations

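Amd2, the near-identical copy of Amd1, had 62.5, 33.5 and 28.0 CPM in macrophage-like cells of tumors 1, 2 and 3, and 46.7, 15.0 and 0 CPM in neutrophil-like cells. The genes of hypusination, which use spermidine to modify the translation factor eIF5A, had their highest means in tumor-like cells among the 3 classes. Eif5a had 1046, 1383 and 1302 CPM in tumor-like cells against 399, 754 and 736 CPM in macrophage-like cells, above in each tumor. Dohh, which completes hypusine, had 113, 126 and 151 CPM in tumor-like cells and 34.8, 76.6 and 69.3 CPM in macrophage-like cells. Dohh, Eif5a and Dhps were higher in the contrast with the averaged other classes (1.58, 1.17 and 1.02, edgeR adjusted p = 0.00423, 0.00480 and 0.0234), where 28.4% of all genes were called higher and their median was 0.55. DESeq2 called 171 genes higher in that contrast and edgeR 2768. Against macrophage-like cells alone the 3 genes had edgeR adjusted p = 0.255, 0.261 and 0.512. Against neutrophil-like cells with the tumor as block, Dohh (1.83, edgeR adjusted p = 0.0219) and Dhps (1.54, adjusted p = 0.0499) passed, and Eif5a did not (adjusted p = 0.115). Without the block Dohh and Dhps had edgeR adjusted p = 0.0656 and 0.0612. As with the synthesis genes, their myeloid levels were lowest in tumor 1, where tumor markers in these sums were lowest, and the part of tumor transcripts was not tested.

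Among macrophage subsets Gatm was higher in Apoe+-like cells (2.30, edgeR adjusted p = 0.00121) and lower in Pecam1+-like cells (-2.64, edgeR adjusted p = 0.00851). Atp13a2 was higher in Apoe+-like cells (1.86, edgeR adjusted p = 0.0118), the subset where Paox was higher. These were the 3 calls among 12 other pathway genes tested, where 4.45% of all genes were called higher and 3.48% lower in Apoe+-like cells and 2.75% and 1.43% in Pecam1+-like cells. With the tumor as block Arg1 was lower in Pecam1+-like (-6.13, edgeR adjusted p = 0.00714) and higher in Ccr2+-like cells (4.46, adjusted p = 0.0105). Slc3a2 was then lower in Pecam1+-like (-0.72, edgeR adjusted p = 0.0397) and higher in Apoe+-like cells (0.78, adjusted p = 0.0133), as was Dohh in Apoe+-like cells (0.97, adjusted p = 0.0301). These genes were named after their values were seen.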
